A study of Mus musculus with 8 samples.

Results

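The neural crest and the neural plate border were followed through 9 genes: the receptor genes Ednrb and Ngfr, and the transcription factor genes Sox10, Foxd3, Tfap2a, Tfap2b, Snai2, Msx1 and Msx2. They were taken by gene symbol from the 24849 gene rows of an RNA-seq study of mouse embryonic stem cells (mESCs) that lack PCGF5, a subunit of the Polycomb complex PRC1. Ednrb entered the group because its level was among those most reduced in the knockout at day 6, so the genotype comparison at day 6 describes these 9 genes and does not test them. The study asked how loss of PCGF5 alters the path from mESCs to neural cells.

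Polyadenylated RNA was sequenced from whole cultures of the MPI-II mESC line, which has the 129S2/SvPas background, in 4 conditions with 2 samples each. Each genotype, wild type and Pcgf5-/-, was sampled before differentiation (day 0) and on day 6 of it. Day 0 cells of both genotypes grew on feeder cells in medium with serum, LIF and the 2i inhibitors CHIR99021 and PD0325901, and all day 6 cells had been moved to the neural differentiation medium N2B27. In the knockout, exon 2 of Pcgf5 was targeted with TALEN nucleases, and single colonies were picked after puromycin and G418 selection. The sources do not say whether the 2 Pcgf5-/- samples of a day came from 1 colony or several, so a difference between genotypes cannot be told apart from a difference between colonies. The samples are named as biological replicates, and p-values measure the spread between these samples only.

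The neural crest arises at the border between the neural plate and the surface ectoderm, where BMP, WNT and FGF signals act together. Border cells switch on MSX, PAX3/7, ZIC and AP-2 factors, and crest cells then switch on FOXD3, SNAI2 and SOX10 before they leave the dorsal neural tube. Their descendants include peripheral neurons and glia, pigment cells and parts of the facial skeleton. Several of these genes also have uses outside the crest: Foxd3 is active in mESCs, and Ednrb is carried by radial glia of the developing brain.

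The values are FPKM, the fragments assigned to a gene scaled by the length of its exons and by the mapped fragments of the library. Pcgf5, the targeted gene, was listed at 5.18 and 3.63 FPKM in wild type at day 0, at 1.28 and 1.84 in Pcgf5-/- at day 0, at 9.16 and 5.06 in wild type at day 6 and at 0.669 and 0.457 in Pcgf5-/- at day 6. It was lower in both knockout samples on both days, by -1.07 ± 0.28 on the log2(FPKM + 1) scale at day 0 (SE, limma adjusted p = 0.105) and by -2.33 ± 0.28 at day 6 (limma adjusted p = 0.00421). The median log2 difference over all 13214 tested genes was 0.11 between genotypes at day 0 and 0.02 at day 6, and 0.22 between days in wild type and 0.13 in Pcgf5-/- cells. One library stood apart in a marker list: the summed FPKM of 14 feeder fibroblast genes was 802 in the second Pcgf5-/- sample of day 0, against 243 to 380 in the other 3 day 0 samples and 33.3 to 140 at day 6. The tested genes of chromosomes 11 and 6 had median genotype differences of 0.48 and 0.41 (day 0) and of 0.38 and 0.37 (day 6). The medians of the other chromosomes ranged from 0.04 to 0.12 on day 0 and from -0.06 to 0.03 on day 6. Of the 9 genes, Ngfr lies on chromosome 11 and none on chromosome 6.

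A gene was tested if any of the 4 condition means exceeded 1 FPKM, and 7 of the 9 genes met this. Sox10 and Tfap2b did not. Ednrb passed only through its day 6 levels, and Msx1 only through its wild type mean at day 6. Differences are given on the log2(FPKM + 1) scale, which shrinks the change of weakly expressed genes. In bulk RNA, fewer cells of a type and less RNA per cell cannot be told apart.

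Sox10, the factor that defines migrating crest and its glial and pigment descendants, was close to 0 in every library. It lies on the minus strand at chr15:78985343-78994920 (mm9, as for all positions here). It was listed at 0.0264 and 0 FPKM in wild type at day 0, 0 and 0.148 in Pcgf5-/- at day 0, 0.0820 and 0.161 in wild type at day 6 and 0.154 and 0.0799 in Pcgf5-/- at day 6. Where the value is above 0, the half-width of the interval that Cufflinks gives is from 66.7% to 140% of the value. The pigment cell genes of the marker lists were divided. Dct, Tyr and Tyrp1, which encode enzymes of melanin synthesis, were at most 0.0287, 0.124 and 0.0264 FPKM in any library. Mitf, a pigment cell regulator, Kit, the receptor of stem cell factor, and Pmel, a melanosome matrix protein gene, were present at day 0, with means of 12.9, 36.3 and 3.43 FPKM in wild type and 17.2, 35.8 and 3.12 in Pcgf5-/- cells. At day 6 their means were 0.646, 7.76 and 0.368 in wild type and 1.51, 10.6 and 0.791 in Pcgf5-/- cells. The name neural crest stands here for the known role of the 9 genes, since Sox10 was near 0 throughout.

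**Figure D1:**
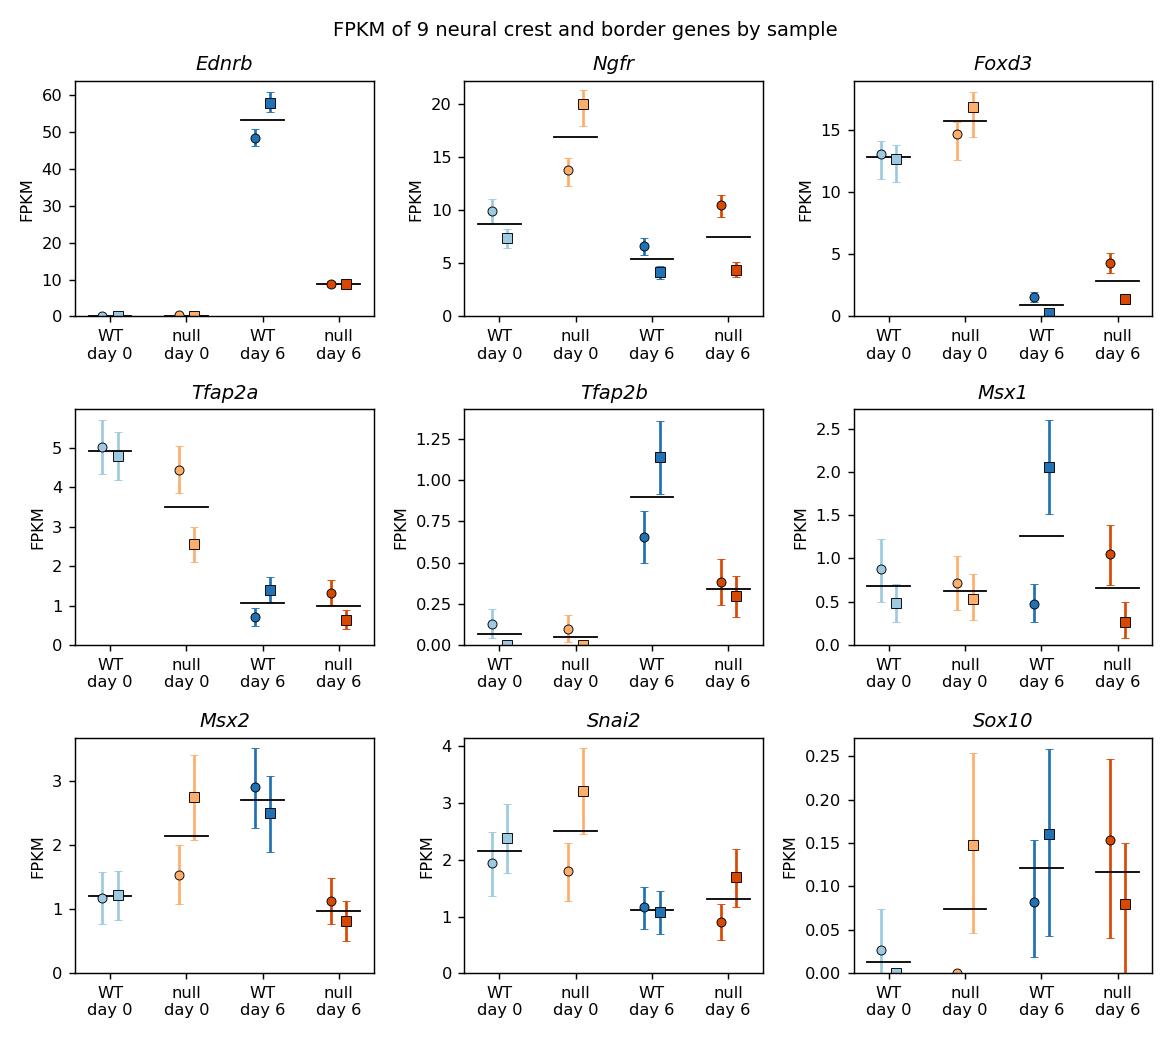
FPKM of each of the 9 genes in the 8 samples (circle, replicate 1; square, replicate 2), with the interval given by Cufflinks as a bar and the mean of each condition as a black line. Each panel has its own linear axis, and Ednrb in wild type at day 6, at 48.5 and 58.0 FPKM, is the highest level of the group.

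At day 6, Ednrb was the most abundant of the 9 genes in both genotypes in mean FPKM, and in wild type its mean exceeded that of 88.9% of the tested genes. Ednrb encodes the endothelin receptor B, which crest cells of the pigment and enteric lineages need. It lies on the minus strand of chromosome 14, at chr14:104213832-104243693 (mm9). The 250 bases before its RefSeq start, at chr14:104242919-104243168 on the minus strand, fall inside an intron of the longer annotated transcripts and directly precede the shorter one. They are shown with those of Foxd3, at chr4:99322740-99322989 on the plus strand, because, of the 9 genes, they differed most between the days in either direction. The sequences are those of the RefSeq GRCm38.p6 table, each found once in the NCBIM37 genome, and capitals mark CG pairs.
Ednrb: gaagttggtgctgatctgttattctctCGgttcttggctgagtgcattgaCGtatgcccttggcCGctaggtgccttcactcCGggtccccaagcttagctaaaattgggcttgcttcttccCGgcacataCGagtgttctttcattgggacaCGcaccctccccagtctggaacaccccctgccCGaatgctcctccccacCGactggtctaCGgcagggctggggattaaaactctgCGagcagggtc
Foxd3: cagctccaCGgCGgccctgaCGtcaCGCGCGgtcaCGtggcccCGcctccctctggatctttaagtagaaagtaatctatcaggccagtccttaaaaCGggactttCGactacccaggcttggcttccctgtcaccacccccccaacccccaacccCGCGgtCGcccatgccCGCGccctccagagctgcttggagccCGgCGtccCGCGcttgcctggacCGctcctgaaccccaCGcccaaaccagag
The Ednrb window holds 11 CG pairs and the Foxd3 window 21, against a median of 6 over 32851 windows of this length. As many CG pairs or more are found in 35.57% and 16.35% of all windows. Of the 9 genes, 7 had a window in the table, in 8 windows in all. The AP-2 motif GCCNNNGGC, searched on both strands, was found in the Ednrb window and in none of the other 7, and in 13.73% of all windows. The Snail E-box CACCTG was found in the Msx1 window (17.22% of all windows), the MSX motif TAATTG in 1 window each of Tfap2a and Tfap2b (7.169%) and the SOX motif ACAAAG in none of the 8 (16.46%).

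Ednrb was nearly silent before differentiation, at 0.262 and 0.130 FPKM in wild type and 0.282 and 0.192 in Pcgf5-/- cells. On day 6 it stood at 48.5 and 58.0 FPKM in wild type and at 8.75 and 8.71 in Pcgf5-/- cells. Every day 6 sample was thus far above every day 0 sample, and both knockout samples were far below both wild type samples. The condition means at day 6 were 53.2 ± 6.71 and 8.73 ± 0.0266 FPKM (SD, n = 2), a ratio of 6.10. On the log2 scale the difference between genotypes at day 6 was -2.47 ± 0.18 (SE), and the difference between days was 5.50 ± 0.18 in wild type and 2.98 ± 0.18 in Pcgf5-/- cells. No p-value is given for these, since Ednrb was chosen on its day 6 values. Ratios of means put the day 6 level 271 times over day 0 in wild type and 36.9 times in Pcgf5-/- cells. The day 0 levels behind them, however, carry Cufflinks intervals with half-widths of 55.6% to 83.4% of the value. At day 0 the genotypes differed by 0.05 ± 0.18 (limma adjusted p = 0.934), with overlapping samples.

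At day 6 the endothelin ligand genes and Ednra, which encodes the sister receptor, were weaker than Ednrb within each genotype, whereas at day 0 Edn1 (2.66 and 1.44 FPKM in wild type, 1.22 and 0.897 in Pcgf5-/- cells) and Ednra (0.637 and 0.424, 0.346 and 1.17) exceeded it. Edn3, the peptide that acts on EDNRB in crest development, was listed at 0 in all day 0 samples and at 0.520 and 0.416 FPKM in wild type and 0.596 and 0.869 in Pcgf5-/- cells at day 6, below the level needed for a test. Ednra, the receptor A used by facial crest, stood at 2.36 and 6.00 FPKM in wild type and 1.35 and 1.85 in Pcgf5-/- cells at day 6. Both knockout samples lay below both wild type samples, but the difference of -0.90 ± 0.36 did not pass (limma adjusted p = 0.125). Edn1 was high in a single library, the second wild type sample of day 6, at 9.24 FPKM, with 1.97 in the other and 1.03 and 1.68 in the knockout samples. Ece1, which cuts the endothelin precursors to their active form, was between 7.49 and 12.3 FPKM in all day 6 samples (log2 difference -0.41 ± 0.41, limma adjusted p = 0.541).

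Ngfr, the low-affinity neurotrophin receptor p75 by which crest cells are often sorted, was expressed on both days. It lies on the minus strand at chr11:95430140-95449012. Its FPKM was 9.92 and 7.42 in wild type and 13.8 and 20.0 in Pcgf5-/- cells at day 0, and 6.68 and 4.15 in wild type and 10.5 and 4.40 in Pcgf5-/- cells at day 6. Both knockout samples exceeded both wild type samples at day 0, and at day 6 the groups overlapped. The day 0 difference of 0.88 ± 0.37 did not pass after adjustment (limma unadjusted p = 0.0450, adjusted p = 0.275). It was 0.40 with the median of chromosome 11 subtracted. Between days, Ngfr was lower at day 6 by -0.61 ± 0.37 in wild type (limma adjusted p = 0.202), and it fell by 1.16 ± 0.37 in Pcgf5-/- cells (limma adjusted p = 0.0447). The latter call was lost on leaving out any 1 of 7 libraries, with adjusted p up to 0.234. At day 6 the genotype difference was 0.33 ± 0.37, which ranged from -0.22 without the first Pcgf5-/- sample to 0.87 without the second.

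Among the partners of Ngfr, the co-receptor gene Sort1 rose from day 0 to day 6 by 2.93 ± 0.21 in wild type and by 1.71 ± 0.21 in Pcgf5-/- cells (limma adjusted p = 2.78e-05 and 0.00102). The BDNF receptor gene Ntrk2 was at 0.166 and 0.0825 FPKM in wild type and 0.0662 and 0.0347 in Pcgf5-/- cells at day 0, and at 3.27 and 2.83 against 2.47 and 2.59 at day 6. It passed the filter only through its day 6 means, so its difference between days is given without a test. Ntrk3, the receptor of neurotrophin-3, was lower in Pcgf5-/- cells at day 6 by -0.86 ± 0.24 (limma adjusted p = 0.0458).

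Foxd3, a repressor-type factor needed both for mESC maintenance and for early crest, was high at day 0 and low at day 6. It lies at chr4:99322990-99325362 on the plus strand (mm9) as a single exon. Its FPKM was 13.0 and 12.6 in wild type and 14.6 and 16.8 in Pcgf5-/- cells at day 0, and 1.56 and 0.265 in wild type and 4.29 and 1.42 in Pcgf5-/- cells at day 6. All day 6 samples lay below all day 0 samples. The fall was 2.94 ± 0.41 in wild type (log2 difference -2.94, limma adjusted p = 0.000651) and 2.22 ± 0.41 in Pcgf5-/- cells (log2 difference -2.22, limma adjusted p = 0.00533), or 14.0 and 5.52 times in mean FPKM. At day 6 the means were 0.914 ± 0.917 and 2.85 ± 2.03 FPKM (SD, n = 2) and the genotypes overlapped, since 1 wild type sample was above 1 knockout sample. The log2 difference of 0.99 ± 0.41 at day 6 ranged from 0.42 to 1.55 on leaving out a day 6 library. At day 0 it was 0.27 ± 0.41 (limma adjusted p = 0.795).

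Snai2, which lowers cadherin expression as crest cells detach, stayed near the threshold for testing. It lies on the plus strand at chr16:14705952-14709475. Its FPKM was 1.93 and 2.38 in wild type and 1.80 and 3.22 in Pcgf5-/- cells at day 0, and 1.16 and 1.08 in wild type and 0.911 and 1.69 in Pcgf5-/- cells at day 6. The day 6 samples were lower than the day 0 samples within each genotype, by 1.92 times in mean FPKM in both. Neither difference between days passed the test (-0.57 ± 0.26, limma adjusted p = 0.0964, in wild type and -0.60 ± 0.26, limma adjusted p = 0.109, in Pcgf5-/- cells). The genotype differences were 0.13 ± 0.26 at day 0 (limma adjusted p = 0.860) and 0.10 ± 0.26 at day 6, both with overlapping samples.

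The AP-2 factors Tfap2a and Tfap2b, which act at the border and in early crest, ran in opposite directions between the days. Tfap2a lies on the minus strand at chr13:40810672-40830289 and Tfap2b on the plus strand at chr1:19198995-19228926. Tfap2a stood at 5.03 and 4.79 FPKM in wild type and 4.44 and 2.55 in Pcgf5-/- cells at day 0, and at 0.714 and 1.40 in wild type and 1.32 and 0.641 in Pcgf5-/- cells at day 6. It fell by 1.54 ± 0.28 in wild type (limma adjusted p = 0.00254) and by 1.17 ± 0.28 in Pcgf5-/- cells (limma adjusted p = 0.0160), the latter not past the threshold without the first Pcgf5-/- sample of day 0 (adjusted p = 0.0945) or the second of day 6 (adjusted p = 0.0984). The genotypes did not overlap at day 0, where the difference was -0.43 ± 0.28 (limma adjusted p = 0.492), and overlapped at day 6 (-0.05 ± 0.28). Tfap2b was listed at 0.129 and 0 FPKM in wild type and 0.0983 and 0 in Pcgf5-/- cells at day 0, and at 0.654 and 1.14 in wild type and 0.380 and 0.294 in Pcgf5-/- cells at day 6. Both wild type samples exceeded both knockout samples at day 6, by 2.66 times in the means. In a fit without the filter on low values, the difference between days was 0.82 ± 0.13 in wild type (limma adjusted p = 0.00589) and 0.35 ± 0.13 in Pcgf5-/- cells (limma adjusted p = 0.120). The same fit gave Sox10 a difference between days of 0.15 ± 0.08 in wild type (limma adjusted p = 0.190) and 0.06 ± 0.08 in Pcgf5-/- cells (limma adjusted p = 0.637).

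Msx2, a homeobox factor downstream of BMP signals at the border, crossed over between the genotypes. It lies on the minus strand at chr13:53562250-53568149. Its FPKM was 1.18 and 1.23 in wild type and 1.54 and 2.75 in Pcgf5-/- cells at day 0, and 2.91 and 2.49 in wild type and 1.12 and 0.817 in Pcgf5-/- cells at day 6. The knockout samples were both above the wild type samples at day 0 and both below them at day 6. In wild type Msx2 rose by 0.75 ± 0.23 (limma adjusted p = 0.0243), and in Pcgf5-/- cells it was lower at day 6 by -0.65 ± 0.23 (limma adjusted p = 0.0574). The wild type call was lost without any 1 of the 4 wild type libraries (adjusted p 0.0586 to 0.101). Between genotypes the difference was 0.49 ± 0.23 at day 0 (limma adjusted p = 0.315) and -0.91 ± 0.23 at day 6, where the wild type mean was 2.78 times the knockout mean. The day 0 difference was 0.21 without the second Pcgf5-/- sample.

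Msx1, its close relative at chr5:38211730-38215824 on the minus strand, showed no separation of the conditions. It stood at 0.878 and 0.484 FPKM in wild type and 0.717 and 0.537 in Pcgf5-/- cells at day 0, and at 0.474 and 2.06 in wild type and 1.05 and 0.270 in Pcgf5-/- cells at day 6. The second wild type sample of day 6 was the highest, while the other one was among the lowest. The same library was the highest for Msx3, another MSX gene, at 3.67 FPKM against at most 0.443 elsewhere, and for Wnt1, a dorsal neural tube signal, at 3.02 against at most 1.11. Neither tested difference of Msx1 passed: -0.04 ± 0.36 between genotypes at day 0 (limma adjusted p = 0.979) and -0.01 ± 0.36 between days in Pcgf5-/- cells (limma adjusted p = 0.986). The difference between days in wild type was 0.35 ± 0.36 and that between genotypes at day 6 was -0.40 ± 0.36, both without a test, as Msx1 entered through its wild type mean at day 6.

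Put together by comparison, 0 of the 7 tested genes passed limma's test between genotypes at day 0, and 1 of them, Ngfr, had an unadjusted p under 0.05. Over all tested genes, 44 passed at day 0, 0.0454% of genes as lower and 0.288% as higher in the knockout, and 2294 had an unadjusted p under 0.05. With quantile normalization 3 genes passed at day 0, all of them lower. Of the 9 genes, Foxd3, Ngfr and Msx2 were higher in the knockout without overlap at day 0 and Tfap2a was lower without overlap, while 34.6% and 13.3% of all tested genes did so. At day 6, Ednrb, Tfap2b and Msx2 were lower in the knockout without overlap and 0 of 9 were higher, beside 28.8% and 33.4% of all tested genes. At day 6, 7.05% of all tested genes passed limma's test as lower and 9.57% as higher. The choice of genes used this comparison, so nothing is read from these counts.

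Between days, Foxd3 and Tfap2a fell and Msx2 rose in wild type among the 5 genes that could be tested (Ednrb and Msx1 having entered through day 6), and 16.2% of all tested genes fell and 34.2% rose. With quantile normalization the share of risers among all calls was 51.3%, against 67.8% here, and the Msx2 call was lost (0.30, limma adjusted p = 0.274). In Pcgf5-/- cells Foxd3, Tfap2a and Ngfr fell and 0 of 6, Msx1 included, rose, beside 10.4% and 21.9% of all tested genes (share of risers among all calls 53.1% with quantile normalization, 67.9% without). The change over time differed between genotypes by -2.52 ± 0.25 for Ednrb and by -1.40 ± 0.32 for Msx2, by 0.72 ± 0.58 for Foxd3 and by -0.55 ± 0.53 for Ngfr. For Tfap2a, Msx1 and Snai2 it was 0.37 ± 0.40, -0.36 ± 0.51 and -0.03 ± 0.36. These include the day 6 comparison and carry no test. In the same contrast 1.75% of all tested genes passed as lower and 1.34% as higher, and the share of higher ones among all calls was 43.4%, or 57.7% with quantile normalization.

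**Figure D2:**
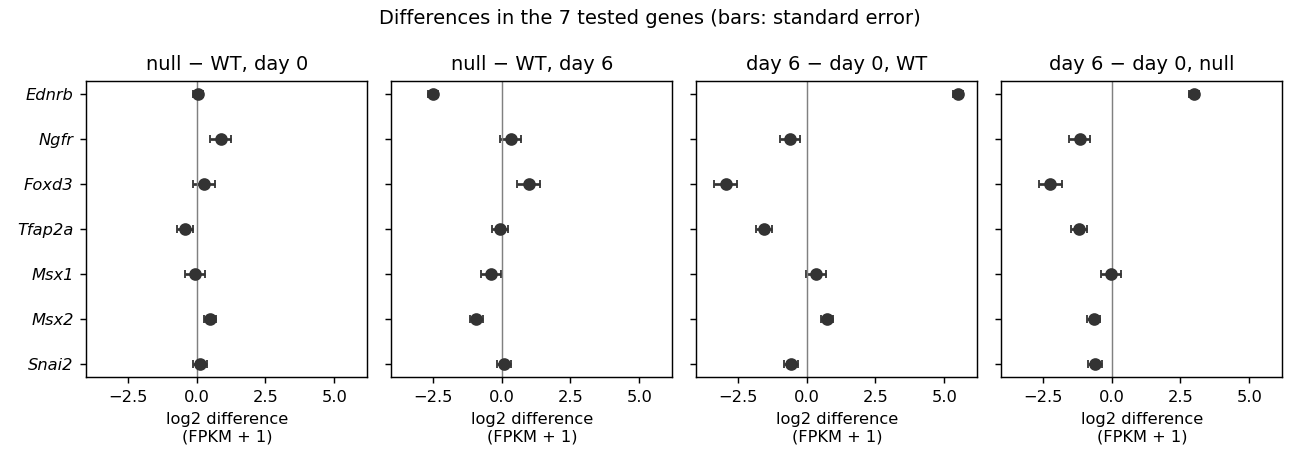
Log2 differences of FPKM + 1 with their standard errors from the limma fit for the 7 tested genes, in 4 comparisons: between genotypes at day 0 and at day 6 and between days in each genotype. Ednrb lies at -2.47 between genotypes at day 6 and at 5.50 and 2.98 between days, and Foxd3 at -2.94 and -2.22 between days.

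The wider crest programme was described with 96 further genes in 6 lists drawn up by role, of which 70 could be tested. The lists were written with earlier results of these data known. Their counts beside the shares of all tested genes therefore describe the listed genes only. At day 0, 0 of the 70 passed between genotypes in limma's test at an adjusted p of 0.05, and 3 had an unadjusted p under 0.05, all higher in the knockout. Over all tested genes 0.0454% passed as lower and 0.288% as higher at day 0. At day 6, 22 of the 70 were lower and 5 higher in Pcgf5-/- cells, beside 7.05% and 9.57% of all tested genes, with a median log2 difference of -0.50 against 0.02. Between days 44 rose and 9 fell in wild type, beside 34.2% and 16.2% of all tested genes (median 1.08 against 0.22), and 28 rose and 10 fell in Pcgf5-/- cells, beside 21.9% and 10.4% (median 0.58 against 0.13). The filter on low values fixed part of these directions: 27 of the 44 and 16 of the 28 rises were of genes that passed it only at day 6. Of the falls, 2 of the 9 and 3 of the 10 were of genes that passed it only at day 0. Among the 22 genes lower in the knockout at day 6, 5 passed it only through wild type at day 6. Those 5, Zic1, Sox6, Sox8, Isl1 and Neurog2, could only be called lower. The 27 calls at day 6 were 6 without the first Pcgf5-/- sample of day 6, and 12 without either the second such sample or the second wild type sample of day 6.

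The border specifiers split at day 6. The shares of all tested genes given above, 7.05% lower and 9.57% higher, stand beside each of the following counts for day 6. Of 11 tested, 4 were lower and 2 higher in the knockout, with Zic1 able to be called only as lower. Pax3, which drives border cells toward a crest fate, stood at 9.92 and 16.1 FPKM in wild type and 1.06 and 1.69 in Pcgf5-/- cells at day 6, with at most 0.0725 at day 0. The wild type samples lay well above the knockout samples (log2 difference -2.54 ± 0.25, limma adjusted p = 0.00377). Pax7, which shares this role, stood at 6.98 and 7.76 FPKM in wild type and 1.48 and 2.87 in Pcgf5-/- cells (-1.43 ± 0.23, limma adjusted p = 0.00886). In the other direction, Prdm1 was higher by 1.18 ± 0.23 (limma adjusted p = 0.0151). The median of the list was 0.54, on the opposite side of 0 from its larger share of calls. Prdm1 also marks germ cell precursors.

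Of 24 tested crest specifiers and emigration genes, 10 were lower and 1 higher in the knockout at day 6 (median -0.69). Sox6 and Sox8, among those lower, could only be called lower. Nr2f1, a nuclear receptor gene of crest and forebrain, was at 26.5 and 38.0 FPKM in wild type and 2.89 and 5.32 in Pcgf5-/- cells (-2.72 ± 0.27, limma adjusted p = 0.00377), and Id3, a BMP target, was lower by -1.60 ± 0.44 (limma adjusted p = 0.0409). The exception was Tfap2c, the AP-2 family member also used in trophoblast and germ cells. It was at 19.4 and 16.4 FPKM in wild type at day 0 and at 5.84 and 6.69 at day 6, but at 20.6 and 18.1 at day 0 and 17.6 and 24.7 at day 6 in Pcgf5-/- cells. The day 6 difference was 1.59 ± 0.19 (limma adjusted p = 0.00421). Crabp1, a retinoic acid binding protein gene of migrating crest and hindbrain, rose by 5.74 ± 0.24 in wild type and by 3.72 ± 0.24 in Pcgf5-/- cells (limma adjusted p = 5.28e-06 and 8.97e-05).

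Of 12 tested endothelin and neurotrophin partners, only Ntrk3 passed at day 6. Of 9 tested inducing signals, Wnt7b was lower by -1.41 ± 0.27 and Wnt8a higher by 0.66 ± 0.18 (limma adjusted p = 0.0137 and 0.0429). The BMP ligand gene Bmp4 fell between days in both genotypes, by 1.68 ± 0.36 in wild type and 1.77 ± 0.36 in Pcgf5-/- cells (limma adjusted p = 0.00552 and 0.00818). The BMP antagonist gene Grem1 was at 10.3 and 6.62 FPKM in wild type and 5.45 and 7.99 in Pcgf5-/- cells at day 0 and at 0.213 and 0.278 against 0.114 and 0.185 at day 6, without a test between days, since it passed the filter only at day 0. Of 6 tested glial and melanocyte genes, Fabp7, a radial glia gene as well, was lower by -1.67 ± 0.33 and the neuregulin receptor gene Erbb3 higher by 0.72 ± 0.18 (limma adjusted p = 0.0145 and 0.0342). Of 8 tested genes of peripheral neurons, 5 were lower and 0 higher, with Isl1 and Neurog2 able to be called only as lower. Neurog1, a sensory neuron gene that the dorsal neural tube also uses, was lower by -1.02 ± 0.28 (limma adjusted p = 0.0405).

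**Figure D3:**
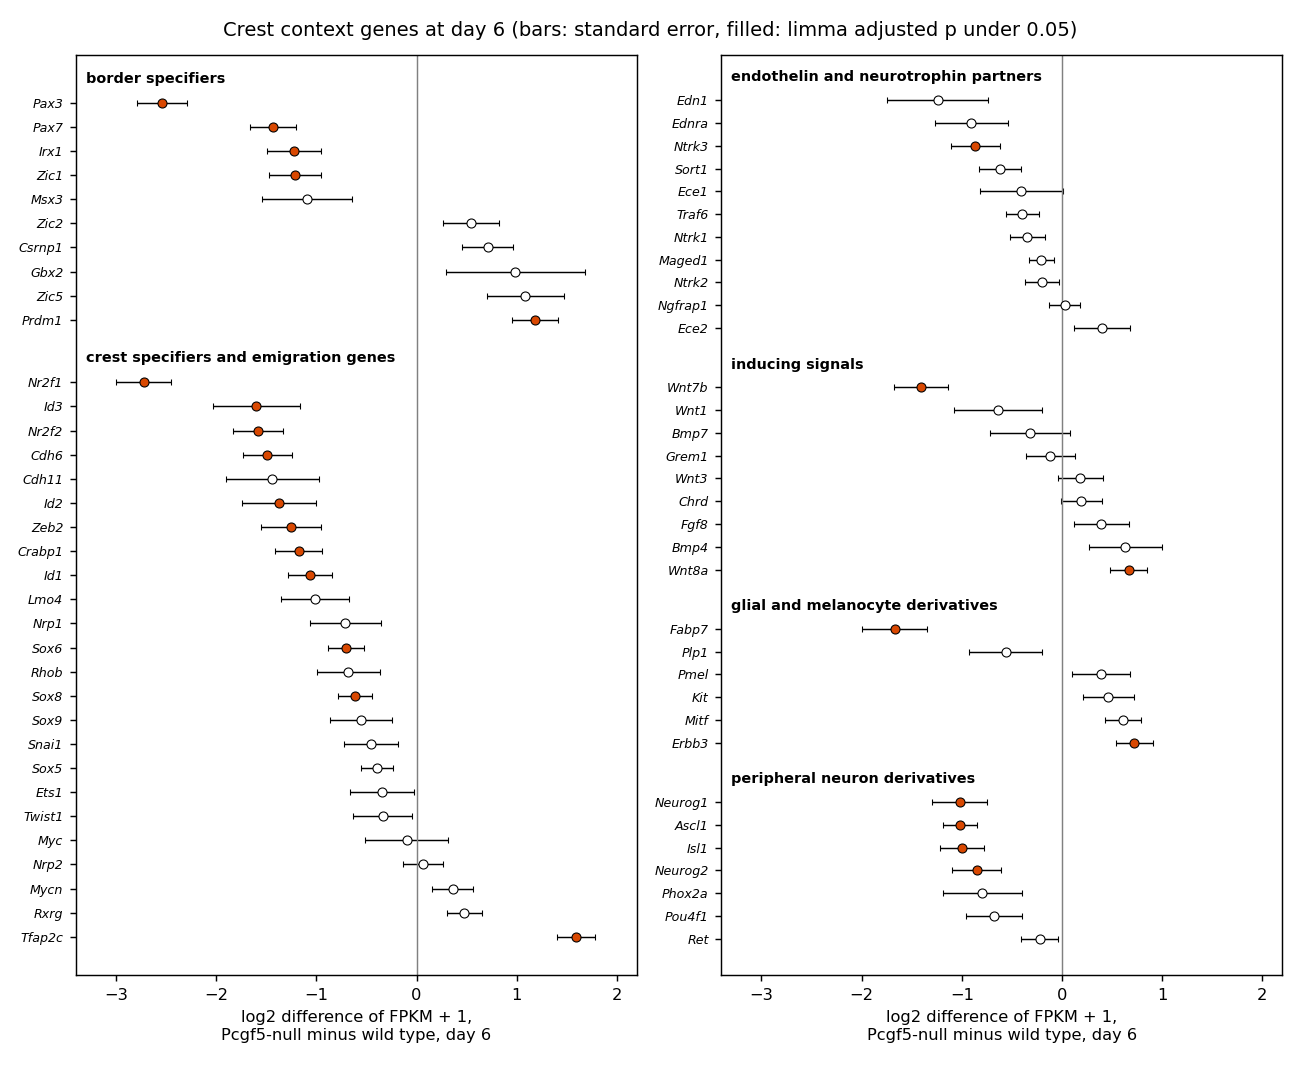
Log2 difference of FPKM + 1, knockout minus wild type, on day 6 for 67 of the 70 tested crest context genes in 6 lists, with standard errors. Filled points (21 of the 22 genes called lower and 4 of the 5 called higher) passed limma's test at an adjusted p of 0.05, with Nr2f1 at -2.72 and Tfap2c at 1.59 as the lowest and the highest of them.

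Markers of other cell types moved with genotype and day in the same libraries. At day 6, 9 of 12 neural progenitor genes were lower and 0 higher in the knockout (limma, median -1.25), with summed FPKM of 832 and 886 in wild type and 399 and 375 in Pcgf5-/- cells. Fabp7, among the 9, is also counted in the glial and melanocyte list above. Of 8 pluripotency genes, 7 were higher and 0 lower (median 2.03), with sums of 394 and 170 against 1103 and 1025. Of 8 tested surface ectoderm genes 3 were higher and 0 lower, with sums of 191 and 313 against 211 and 222. The 3 genes called higher were not keratin genes. Among these 3 was Grhl3, at 3.36 and 5.71 FPKM in wild type and 9.37 and 9.09 in Pcgf5-/- cells at day 6. Its difference was 0.92 ± 0.25 (limma adjusted p = 0.0413). In this list the epidermal genes Krt5, Krt14 and Trp63 were at most 0.399 FPKM in any library, while the keratin genes of simple epithelia, Krt8 and Krt18, were abundant. Krt17, a further keratin gene of the list, stood at 5.12 and 1.48 FPKM in wild type and 9.57 and 5.66 in Pcgf5-/- cells at day 0. At day 6 Krt17 was at 0.545 and 0.305 FPKM in wild type and 0.794 and 0.405 in Pcgf5-/- cells. Krt8 stood at 54.3 and 117 FPKM in wild type and 19.8 and 31.8 in Pcgf5-/- cells at day 6, and Krt18 at 67.8 and 132 against 35.9 and 46.6. Both knockout samples lay below both wild type samples for each, but neither difference passed (-1.63 ± 0.60 and -1.19 ± 0.41, limma unadjusted p = 0.0265 and 0.0195, adjusted p = 0.102 and 0.0833). In wild type Krt8 rose between days by 2.42 ± 0.60 and Krt18 by 4.37 ± 0.41 (limma adjusted p = 0.0108 and 9.58e-05). Of 8 tested mesendoderm genes 0 passed at day 6 in limma's test and 1 had an unadjusted p under 0.05, with sums of 24.3 and 5.11 against 14.4 and 5.13. The part of these cell types in the levels of Ednrb, Foxd3 and the other genes was not tested.

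Of 14 feeder fibroblast genes, 0 passed limma's test between genotypes at day 0, adjusted or not, although all 14 had a positive difference (median 0.44). Their sums were 380 and 266 FPKM in wild type and 243 and 802 in Pcgf5-/- cells at day 0, and 56.0 and 140 against 33.3 and 35.3 at day 6. Between days 9 of the 14 fell and 0 rose in wild type, beside 16.2% and 34.2% of all tested genes (limma, median -2.08). In Pcgf5-/- cells 10 fell and 0 rose, beside 10.4% and 21.9% (limma, median -2.57). Lum, Pdgfrb, Prrx1 and Twist2 passed the filter on low values only through day 0, which fixed the direction of any call on them. Of the 9 genes, Snai2, Ngfr and Foxd3 were highest of all 8 samples in the same library as the feeder sum, Msx2 and Sox10 had their highest day 0 value there, and Tfap2a had its lowest. Ednrb and Msx1 lay within the range of the other day 0 samples, and Tfap2b was listed at 0. Without that library the day 0 genotype differences were -0.17 for Snai2, 0.62 for Ngfr, 0.18 for Foxd3, 0.21 for Msx2 and -0.12 for Tfap2a, beside 0.13, 0.88, 0.27, 0.49 and -0.43 with it.

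**Figure D4:**
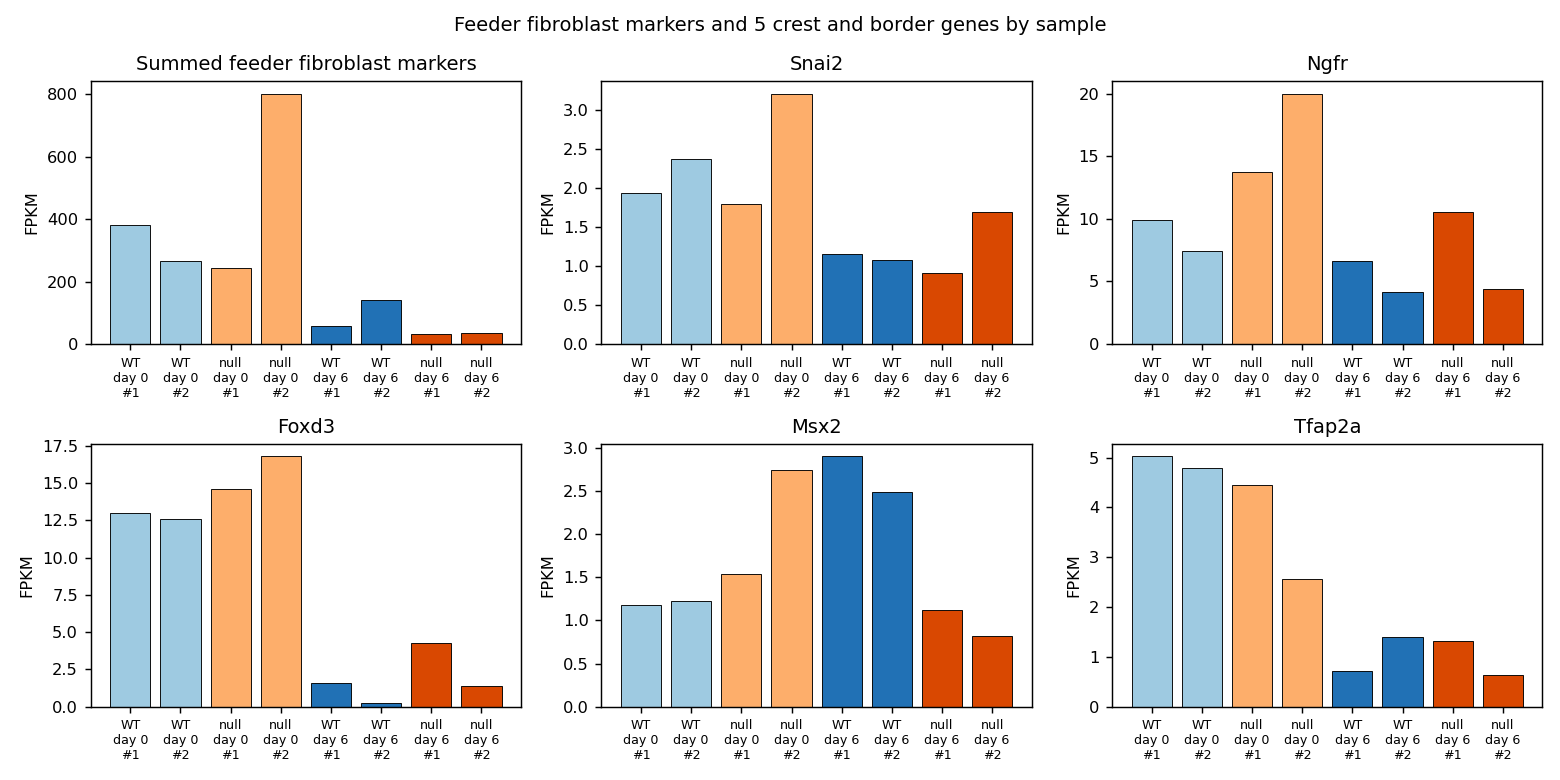
Bars give FPKM in each of the 8 samples, for the sum of 14 feeder fibroblast genes and for Snai2, Ngfr, Foxd3, Msx2 and Tfap2a, on linear axes that start at 0. The second Pcgf5-/- sample of day 0 is the highest for the feeder sum (802), Snai2 (3.22), Ngfr (20.0) and Foxd3 (16.8), and the lowest of day 0 for Tfap2a (2.55).

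The genes most like each tested gene were found by Pearson's r of log2(FPKM + 1) over the 8 samples, as a description without a p-value. The samples fall into 2 days and 2 genotypes, so a high r mostly reflects the pattern over the 4 conditions. Nearest to Ednrb were Rfx4, Ptprn2 and Zbtb16, each at r = 0.999. Rfx4, a transcription factor gene of the dorsal midline and of neural progenitors, was at most 0.193 FPKM at day 0 and stood at 20.9 and 26.3 in wild type and 6.10 and 5.29 in Pcgf5-/- cells at day 6. Nearest to Foxd3 were Tead4, Tfeb and Dgke, with r of 0.995, 0.993 and 0.990. Tead4 encodes a TEAD family factor best known from trophoblast. Among the nearest to Tfap2a were 2500002B13Rik and Tmem79 (0.984 and 0.982). For Ngfr they were Kdr, Myo1g and Eaf1 (0.967, 0.955 and 0.953), and for Snai2 Irf9, Pdia5 and Gnl1 (0.959, 0.954 and 0.945). Kdr encodes a VEGF receptor of blood vessel precursors, and Irf9 a factor of the interferon response. Msx2 had Map6, Rbak and Fam65a (0.950, 0.944 and 0.943). Likeness was lowest for Msx1, with Pcdhga11 at 0.893, Cep63 at 0.872 and Msx3 at 0.822. None of the 7 tested genes was among the 3 nearest of another, and Sox10 and Tfap2b were not part of this search.

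**Figure D5:**
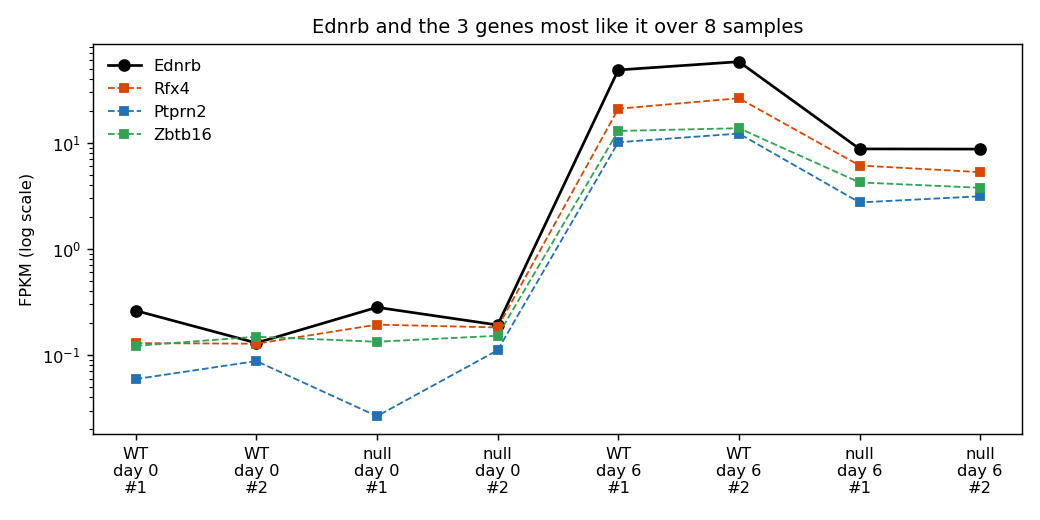
FPKM on a log axis of Ednrb (black) and of the 3 tested genes with the highest Pearson's r to it, in each of the 8 samples. All 4 lie under 0.3 FPKM at day 0 and are higher in the wild type than in the Pcgf5-/- samples at day 6.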

How the data were processed

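RNA-seq FPKM values per gene were used as the authors deposited them, in 1 file for each of the 8 samples. The authors trimmed reads, removed identical duplicates, aligned read pairs to mm9 and computed FPKM. The submitters' processing notes name TopHat2 2.0.4 and Cufflinks 2.1.1, and the annotation is not given in the sources used here. FPKM is scaled for library size and exon length, and duplicate removal lowers abundant transcripts. The files hold no read totals, so the depth per sample is unknown. Precision is read from the Cufflinks intervals, which are given for each sample and do not cover the spread between samples.

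Values were analysed as log2(FPKM + 1) in limma 3.58.1 (R 4.3.3). The model had a mean per condition, a trend of variance on expression, all 8 samples and 0.05 as the threshold on Benjamini-Hochberg adjusted p. The 13214 genes with a mean over 1 FPKM in a condition were tested. The fit was tested on simulated data. Other tables and plots were made with Python 3.11.15 and matplotlib 3.10.9. The 9 genes and all lists were chosen with earlier results of these data known. The text names the 9 genes, Pcgf5, up to 2 genes per list and direction past the threshold, and the 3 genes most like each tested gene; a few of these are not reported here. Other genes were named after their values were seen (Edn1, Edn3, Ednra, Ece1, Msx3, Wnt1, Dct, Tyr, Tyrp1, Mitf, Kit, Pmel, Krt5, Krt14, Trp63, Krt8, Krt18, Grhl3, Cdh6, Zic1, Sox6, Sox8, Isl1, Neurog2, Lum, Pdgfrb, Prrx1, Twist2). Promoter windows were taken from the RefSeq table and placed in NCBIM37 by exact match. File starts were counted from 0 and are given from 1. Alternatives were a pseudocount of 0.1, no filter, quantile normalization, a replicate block, only the compared conditions, no variance trend, the chromosome median subtracted, and each library left out.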

Additional observations from a re-analysis of the deposited data

Results flagged for a closer look

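Of the 70 tested crest context genes, 5 passed limma's interaction test, 4 of them as lower and 1 as higher, beside 1.75% and 1.34% of all tested genes. Pax3, Nr2f1 and Cdh6 (named after its values were seen) passed the filter on low values only through day 6. They were near 0 at day 0 and higher in wild type at day 6. Their interactions of -2.55, -2.84 and -1.64 largely repeat their day 6 differences of -2.54, -2.72 and -1.49. The day 0 differences were 0.02, 0.12 and 0.15, so no p-value is given for these genes. Crabp1 had an interaction of -2.03 (limma adjusted p = 0.0305). Tfap2c went the other way, at 1.49 (limma adjusted p = 0.0347). None of the 70 passed without the second Pcgf5-/- sample of day 0, either Pcgf5-/- sample of day 6 or the second wild type sample of day 0, 2 passed without the second wild type sample of day 6, and 8 without the first Pcgf5-/- sample of day 0. For Msx2 the value was -1.40, as both wild type samples of day 6 were above both of day 0, and both Pcgf5-/- samples of day 6 were below both of day 0. This difference was not tested, because Msx2 belongs to the genes chosen with the day 6 comparison in view.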

How the results depend on the processing

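Each condition had 2 samples of unknown depth, and Sox10, Tfap2b and Msx1 lay near or under 1 FPKM, where the Cufflinks intervals are wide. The Ednrb differences between genotypes at day 6 and between days kept their sign under all alternatives run. This is no support for them, since Ednrb was chosen on its day 6 values. Its differences between days were 7.52 in wild type and 4.73 in Pcgf5-/- cells with a pseudocount of 0.1. That pseudocount also moved the day 6 differences of Foxd3 to 1.73, Msx2 to -1.40 and Msx1 to -0.77. Beside 27 crest context calls at day 6, leaving out 1 library gave 6 to 24. The 5 interaction calls became 0 without the filter, 8 without the variance trend and 0 to 8 on leaving out 1 library. The 3 calls between days in Pcgf5-/- cells became 5 with quantile normalization, when Snai2 (adjusted p = 0.0267) and Msx2 (adjusted p = 0.0104) passed as lower, and 1 to 3 on leaving out 1 library (1 without the second Pcgf5-/- sample of day 6). Ngfr in Pcgf5-/- cells also missed the threshold without the filter (adjusted p = 0.105), without the trend (0.0507) and with only the compared conditions (0.0612).

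Among the differences of the 9 genes at day 0 and between days the sign turned in these cases. At day 0, Ednrb went from 0.05 to -0.025 with the chromosome median subtracted, to -0.014 with quantile normalization and to -0.030 without the second wild type and -0.0029 without the first Pcgf5-/- sample. Msx1 went from -0.04 to between 0.04 and 0.13 without the second Pcgf5-/- or the first wild type sample, and Snai2 from 0.13 to -0.030 with quantile normalization and to -0.17 without the second Pcgf5-/- sample (highest value 0.42, without the first). Between days, Msx1 went from 0.35 to -0.042 in wild type with quantile normalization, and from -0.01 to between 0.07 and 0.33 in Pcgf5-/- cells without the first sample of day 0 or the second of day 6 (lowest value -0.36, without the first of day 6). Of the untested day 6 differences, Tfap2a turned to 0.20 without the second Pcgf5-/- sample and to 0.19 without the second wild type sample, Snai2 to -0.15 without the second Pcgf5-/- sample, and Ngfr to -0.05 with the chromosome median subtracted. The cause was not tested.

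Quantile normalization moved the median of all genes by -0.21 between days in wild type, by -0.10 in Pcgf5-/- cells and by -0.12 between genotypes at day 0. The 44 day 0 calls over all genes, 38 of them higher, became 3, all lower, with it, 6 without the filter and 0 to 43 in the other alternatives that kept all samples. The replicate numbers share no stated origin: deviations of same-numbered samples correlated at 0.10 between the day 0 groups, 0.39 between the day 6 groups and -0.08 to -0.02 across days. With the replicate block there were 0, 3 and 3 calls among the 9 genes at day 0 and between days in wild type and Pcgf5-/- cells, 25 crest context calls at day 6 and 5 interaction calls, and over all genes 1 call at day 0 and 2410 instead of 2197 at day 6. The interaction was not run with only the compared conditions, since it needs all 4.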
